A study of Drosophila melanogaster with 2 samples.

Results

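The genes described here are those that encode the protein subunits of the Drosophila mitochondrial ribosome. They were chosen by name, as protein-coding genes whose symbol begins with mRpL (large subunit) or mRpS (small subunit). This gave 73 of 13945 protein-coding genes on the 6 major chromosome arms of the dm6 genome build, 47 of the large and 26 of the small subunit. For each gene the strength of the strongest ChIP-seq peak whose summit lay within 1 kb of any annotated transcript start was taken. The data came from 1 group of 2 replicates, numbered 1 and 3. The material was whole adult flies, males and females pooled and of unknown age, of a transgenic line in which GFP was fused to the C-terminus of Capicua (cic). Chromatin sheared to 200 to 800 bp was precipitated with an antibody against GFP. No other genotype, treatment or time was compared, and the cell types that contributed chromatin cannot be told apart in whole flies.

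Capicua is an HMG-box repressor that works below receptor tyrosine kinase and Ras signalling: the active pathway relieves its repression, and it is known for binding TGAATG-type octamers. Mitochondrial ribosomes translate the few messenger RNAs of the mitochondrial genome, which in animals encode respiratory chain subunits. The ribosomal RNAs come from mitochondrial DNA, but every ribosomal protein is encoded in the nucleus and imported. Its genes are nuclear housekeeping genes by this general role, and their expression was not measured here.

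A Capicua-GFP summit in the thresholded list, the entries that passed the authors' threshold on the irreproducible discovery rate, lay within 1 kb of a start of 30 of the 73 genes (41.1%), against 30.5% of all protein-coding genes. The longer relaxed list made from both replicates together holds, by its label, background as well as peaks. An entry in it is therefore not by itself a site of binding. In that list 69 of 73 genes (94.5%) had a summit within 1 kb, against 67% of all genes. In the relaxed lists of both single replicates, 64 of 73 (87.7%) did, against 61.2%. The larger part of the thresholded summits near these genes lay nearer to the start of a neighbouring gene. When a summit was given only to the gene with the nearest start, 10 of 73 (13.7%) kept one in the thresholded list, against 23.6% of all genes, and 48 of 73 (65.8%) kept one in the pooled relaxed list, against 57.7%. The share with a thresholded summit was therefore above the background when any summit within 1 kb counted and below it when the nearest start was required. The 10 genes were mRpL10, mRpL19, mRpL23, mRpL41, mRpL42, mRpL48, mRpL53, mRpS6, mRpS11 and mRpS24.

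**Figure D1:**
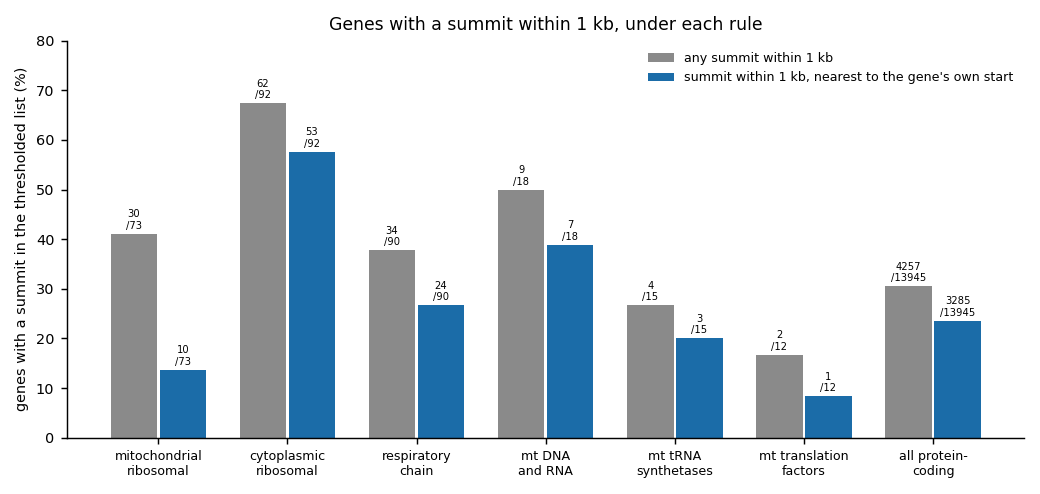
Share of genes (%, vertical axis) with a Capicua-GFP summit in the thresholded list, for the mitochondrial ribosomal protein genes, 5 other gene lists and all protein-coding genes. Grey bars count any summit within 1 kb and blue bars only a summit nearest to the gene's own start, with the number of genes above each bar; the mitochondrial ribosomal bars stand at 41.1% and 13.7%.

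Mitochondrial ribosomal protein genes sit close to other genes, which bears on how a summit is assigned. The median distance from a start of a family gene to the nearest start of another protein-coding gene was 356 bp, against 1368 bp over all genes. For 58 of 73 (79.5%) a neighbour on the opposite strand began within 1 kb upstream and pointed away, a divergent pair, against 36.2% of all genes. The genes were also short, with a median length of 909 bp against 2166 bp, and 67 of 73 (91.8%) had a single annotated start, against 73.5%. Among genes with another start within 1 kb, 28 of 60 family genes (46.7%) had a thresholded summit by the 1 kb rule, against 43% of the 5985 such genes in the genome. By the nearest-start rule the figures for these close-set genes were 8 of 60 (13.3%) and 27%. Among genes with such a neighbour the family share by the 1 kb rule was thus close to the background and the share by the nearest-start rule was below it.

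Peak strength is the authors' deposited score per peak, without a stated scale, so it ranks peaks within a list and is not an amount of protein. Over the 69 family genes with a summit in the pooled relaxed list the median strength was 104, ranging from 31.1 to 465. Over all 9344 genes with one it was 107, and the lowest entry of that list scored 30.7. The family median was close to that of all genes. Summits nearest to the family gene's own start had a median strength of 69.1 (48 genes), against 95.7 over all genes. For 33 of the 69 genes (47.8%) the strongest summit within 1 kb was nearest to another gene's start, against 24.5% of all genes with a summit. Among those in the thresholded list it was 21 of 30 (70.0%), against 26.8%. Strongest summits nearest to another gene's start had a median strength of 135 and those nearest to the family gene's own start 81.1. The stronger peaks near this family were thus more often the neighbour's by position, and the medians over all genes went the same way. In 31 of the 33 cases the nearest start was that of the divergent neighbour. The neighbour's start was nearer by 100 bp or more in 19 cases and by less in 14. In 25 of the 33 cases another gene's start was also nearest in both single replicates.

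**Figure D2:**
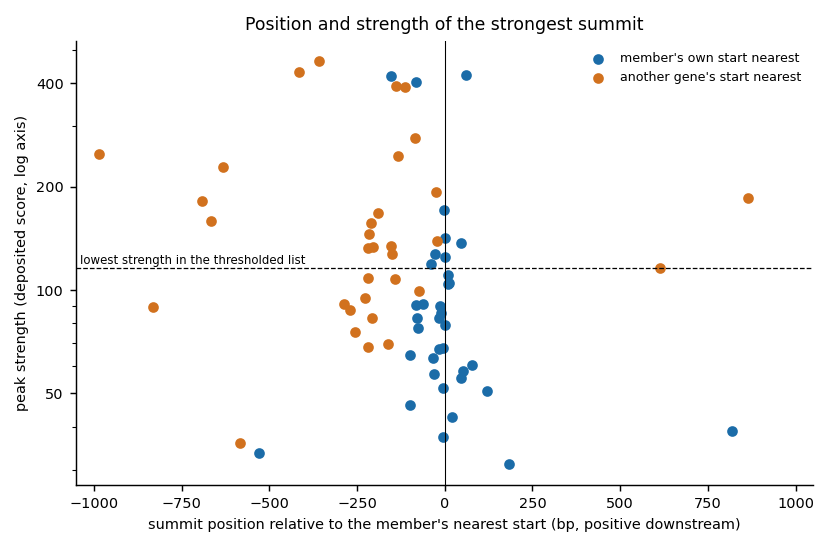
Strength of the strongest summit of each of the 69 genes (log axis, deposited score) against its position relative to the gene's nearest start (bp, positive downstream). Blue points are nearest to the gene's own start and orange points to another gene's, and the dashed line is the lowest strength in the thresholded list, 116; orange points lie mostly upstream and make up 21 of the 30 points above the line.

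The 12 strongest genes are described first, beginning with those whose summit lay at a neighbour. The highest value belonged to mRpL2, whose bacterial counterpart lines the peptidyl transferase centre. Its summit at 3L:11120488 scored 465 in the pooled list, 244 in replicate 1 and 229 in replicate 3, a replicate mean of 236 ± 10.3 (SD, n = 2). The position is inside an intron of the divergent neighbour FoxK, a forkhead transcription factor gene, 77 bp from a start of FoxK and 359 bp upstream of mRpL2. By strength it ranked 354 among genes with a summit. Of the 3 pooled summits within 1 kb of the mRpL2 start, 2 were in the thresholded list. The only one nearest to the mRpL2 start lay 955 bp downstream of it, scored 40.1 and was not in the thresholded list. Neither thresholded summit thus belongs to mRpL2 by position.

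The small-subunit gene mRpS23 had a strength of 431, from 159 in replicate 1 and 273 in replicate 3. This summit at 2L:13835487 was 77 bp from CenG1A, a GTPase and Arf-GAP gene, and 415 bp upstream of mRpS23. No summit was nearest to the mRpS23 start itself. The gene mRpS10 had 393, from 144 and 251, at 3R:15229526 between its own start and that of Art3, an arginine methyltransferase gene. The Art3 start was 118 bp from the summit and the mRpS10 start 139 bp, so the call for Art3 rests on a small difference in distance. No summit was nearest to an mRpS10 start either. In mRpS23 and mRpS10 replicate 3 was the higher.

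The gene mRpS16 scored 390, with 196 in replicate 1 and 199 in replicate 3, and its summit lay in the 5′ UTR of cg (combgap, a zinc finger protein gene), 16 bp from a cg start. The gene mRpL47 scored 277, from 162 and 116, at a summit 14 bp from a start of CG8176 and equally near one of Kdm3, a histone demethylase gene, and 85 bp from its own start. The gene mRpS18B scored 249, from 156 and 93.0, at a summit in an intron of Kua, 381 bp from a Kua start and 986 bp from mRpS18B. These 3 genes had no summit nearest to their own start.

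The gene mRpL24 scored 245, from 117 and 132, at a summit 132 bp upstream of its own start. That summit was 86 bp from betaggt-I, which encodes the beta subunit of a geranylgeranyl transferase. The gene mRpS31 scored 229, from 108 and 122, with the summit in the 5′ UTR of hzg, 632 bp upstream of its own start. The gene mRpS14 scored 193, from 138 in replicate 1 and 60.4 in replicate 3. Its summit was 4 bp from Naa15-16, a subunit gene of an N-terminal acetyltransferase, and 25 bp upstream of mRpS14. A start of Naa15-16 lies 21 bp from one of mRpS14. None of these 3 genes had a summit nearest to its own start. The replicates were close for mRpL24 and mRpS31 and more than 2-fold apart for mRpS14.

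In 3 of the 12 the family gene's own start was the nearest. The gene mRpL23, whose bacterial counterpart sits beside the exit tunnel for the growing protein, scored 423, from 166 in replicate 1 and 257 in replicate 3. Its summit at 3L:2373616 lay in its own 5′ UTR, 62 bp downstream of the start. The mitochondria-specific gene mRpL41 scored 420, from 173 and 248, at 2R:15217771, in intergenic sequence 154 bp upstream of its start. The gene mRpL53 scored 403, from 209 and 195, at 2R:13954113, 82 bp upstream. The mRpL53 summit also lay in an intron of AGO1, the Argonaute gene of the microRNA pathway, and a start of CG33155 was equally near. These 3 genes carried the highest strengths of any summit nearest to a family gene's own start; the next, mRpS11, scored 171.

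**Figure D3:**
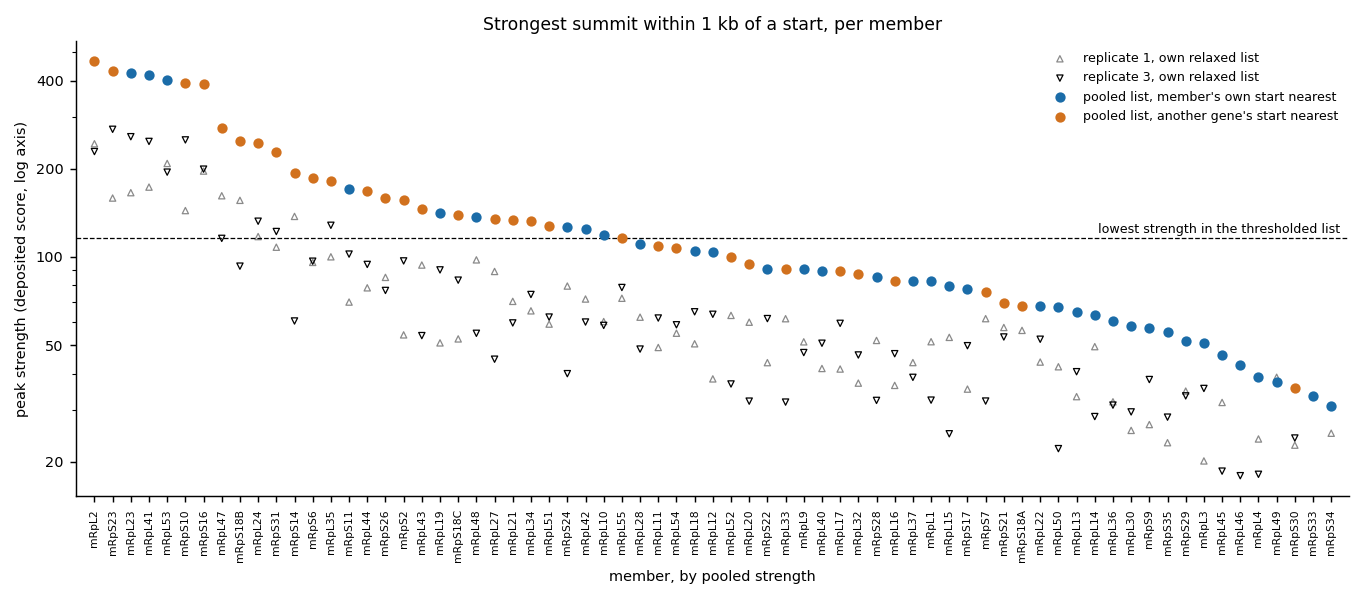
Pooled strength of the strongest summit within 1 kb of a start (deposited score, log axis) for the 69 genes with one, in order of strength, with the values of replicate 1 (open grey) and replicate 3 (open black) from their own lists. Blue points have the gene's own start nearest and orange points another gene's; 30 genes lie above the dashed line, the lowest strength in the thresholded list.

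The interval that mRpS10 shares with its neighbour is short enough to be read whole. Sequences are from RefSeq on the dm6 build. The sequence between the starts of Art3 and mRpS10 (chr3R:15229409-15229664, plus strand, read 5′ to 3′ towards mRpS10) holds the summit that scored 393. It is shown as an example of a divergent pair whose summit lies between both starts. No letters are in capitals, because it held none of the elements searched.
mRpS10 and Art3 interval: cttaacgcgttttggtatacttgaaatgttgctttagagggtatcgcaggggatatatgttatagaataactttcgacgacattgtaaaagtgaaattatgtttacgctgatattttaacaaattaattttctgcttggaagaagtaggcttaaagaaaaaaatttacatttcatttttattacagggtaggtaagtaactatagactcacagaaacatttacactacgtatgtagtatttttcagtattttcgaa

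At the threshold itself the values ran on without a gap. Just inside were mRpS24 with 127, mRpL42 with 125, mRpL10 with 119 and mRpL55 with 116. Just outside were mRpL28 with 110, mRpL11 with 109, mRpL54 with 108 and mRpL18 with 105, and the lowest strength in the thresholded list was 116. In the replicates mRpL10, a gene of the ribosomal stalk, scored 60.2 and 58.4, and mRpL42 scored 71.8 and 60.0. The replicate 1 summit of mRpL42 lay 196 bp from the pooled one. At mRpL55, whose pooled summit was nearest to cdi, replicate 1 scored 72.3 at that summit, and the strongest summit of replicate 3, of 78.7, lay 748 bp away. The values on the outside were 62.3 and 48.5 for mRpL28, 49.1 and 61.9 for mRpL11, of the stalk base, 54.9 and 58.7 for mRpL54, and 50.5 and 65.0 for mRpL18. The 65.0 of mRpL18 came from a summit 960 bp from the pooled one, and the 54.9 of mRpL54 from one 113 bp away. The single-replicate values on both sides of the threshold thus overlapped. Of these 8 genes, mRpL55, mRpL11 and mRpL54 had another gene's start nearest, which for mRpL11 was HtrA2, a mitochondrial serine protease gene.

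Counts and strengths are given by chromosome arm, with few genes on each. A thresholded summit within 1 kb was found for 8 of 12 family genes on 2L (66.7%, against 29.5% of all genes on that arm) and 6 of 12 on 2R (50%, against 34.9%). It was found for 6 of 17 on 3L (35.3%, against 30.7%) and 9 of 21 on 3R (42.9%, against 32.4%). On the X it was found for 1 of 11, mRpS14 (9.09%, against 23.3%). The share was furthest above that of all genes on 2L and below it only on the X. The median strength over family genes with a summit was 131 on 2L, against 108 over all genes there, and 116 on 2R, as over all genes. It was 94.5 against 111 on 3L, 91.0 against 109 on 3R and 63.4 against 89.7 on the X. Flies of both sexes were pooled, and the part of X copy number in these values was not tested.

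Divided by role, and beside the 30.5% of all genes given above, 18 of 47 large-subunit genes (38.3%) and 12 of 26 small-subunit genes (46.2%) had a thresholded summit. Divided by name, 18 of 43 genes numbered as a bacterial ribosomal protein (41.9%) and 12 of the other 30 (40%) did. The second division goes by number only, and a few genes with higher numbers, mRpS24 among them, also have a bacterial counterpart by structure. The median strength was 104 for large-subunit and 109 for small-subunit genes, and 104 and 99.7 for the genes with and without a numbered counterpart. By the nearest-start rule 7 of 47 large-subunit genes (14.9%) and 3 of 26 small-subunit genes (11.5%) had a thresholded summit. For genes with and without a numbered counterpart it was 5 of 43 (11.6%) and 5 of 30 (16.7%), beside 23.6% of all genes. In both divisions the order was thus the reverse of that by the 1 kb rule. No test was made of either division.

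Summits nearest to a family gene's own start mostly lay close to it. Of the 48 genes with one, 39 (81.2%) had it within 100 bp of the start, against 51.2% of all genes. The share was similar for cytoplasmic ribosomal protein genes (83.75%) and respiratory chain genes (78.1%). With another start at a median of 356 bp, the nearest-start rule gives more distant summits to the neighbour. The share therefore depends in part on the rule. The strongest summit within 1 kb lay in intergenic sequence for 37 genes, in a 5′ UTR for 22, in an intron for 6 and in a coding exon for 4. The summit of mRpL19, a protein of the subunit interface in bacteria, fell on its start and scored 142, from 50.9 in replicate 1 and 90.3 in replicate 3. The summit of mRpS11 lay 2 bp upstream and scored 171, from 70.1 and 102. In both genes replicate 3 was the higher.

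Replicates were close over the family as a whole and less so for single genes. The median ratio of replicate 1 to replicate 3 over the 64 genes in both lists was 0.966, with 30 genes higher in replicate 1 and 34 in replicate 3. The values of 62 of 64 genes (96.9%) were within 2-fold of each other, against 93.6% of all genes. Across these 64 genes the log2 strengths had a Pearson r of 0.81, against 0.85 over all genes, and the strengths a Spearman rho of 0.73, against 0.83; the genes share 2 libraries and are not independent replicates. The strongest summits of the replicates lay within 100 bp of each other for 44 of 64 genes (68.8%), against 63.1% of all genes. Each replicate's value is its own strongest summit within 1 kb, which for 20 of 64 genes lay more than 100 bp from the pooled summit in at least 1 replicate. A pooled strength was close to the sum of the replicates' strengths, with a median ratio of 0.985.

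The thresholded genes with the widest difference between replicates were mRpS14, with a log2 ratio of replicate 1 to replicate 3 of 1.19, and mRpL27 with 1.00. For mRpL27, whose bacterial counterpart reaches towards the peptidyl transferase centre, replicate 1 scored 89.2 and replicate 3 scored 44.8. The log2 ratio was 0.99 for mRpS24, which scored 79.6 and 39.95, and 0.83 for mRpL48, which scored 97.7 and, at a summit 125 bp away, 54.9. It was -0.84 for mRpS2, which scored 54.2 and 96.9. Replicate 1 was the higher in 4 of these 5 genes. The pooled strengths were 135 for mRpL27, 137 for mRpL48 and 156 for mRpS2, and the nearest starts were those of CG15435, of mRpL48 itself and of Mon1.

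**Figure D4:**
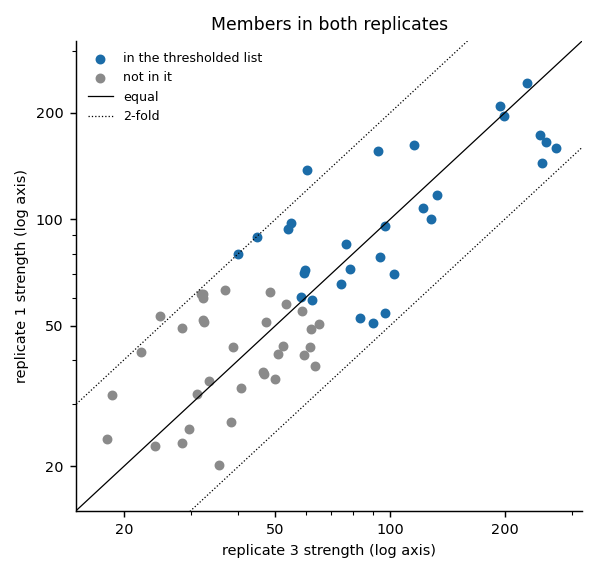
Strength in replicate 1 against replicate 3 (both log axes, deposited score) for the 64 genes with a summit within 1 kb of a start in both relaxed lists; blue points are in the thresholded list. The solid line marks equal values and the dotted lines a 2-fold difference, and 62 of 64 points lie between the dotted lines.

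A few genes had little or no signal. For mRpS5, a core small-subunit protein, and mRpS25, no list held a summit within 1 kb. The nearest summit of the pooled list was 186561 bp from mRpS5 on 3L and 2097 bp from mRpS25 on the X. For mRpL38 and mRpL39 the pooled list held none, and replicate 3 alone held a weak one, of 18.9 and 18.6. For mRpS33 only the pooled list held a summit, of 33.6. All 5 were outside the thresholded list, and 4 of them had no pooled summit.

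The octamers TGAATGAA and TGAATGGA, searched on both strands, were near few of the summits. Within 100 bp of the strongest summit they occurred for 4 of 69 genes (5.80%), against 3.55% over the strongest summits of all genes. They were mRpL37 (TGAATGAA, 70 bp from the summit), mRpS22 (TGAATGAA, 38 bp), mRpL34 (TGAATGGA, 11 bp) and mRpL3 (TGAATGGA, 57 bp). The strengths in the pooled list and in replicates 1 and 3 were 82.9, 43.6 and 38.8 for mRpL37, and 91.0, 43.6 and 61.6 for mRpS22. They were 133, 65.5 and 74.5 for mRpL34. For mRpL3, a core protein of the large subunit, the pooled summit scored 50.8. The strongest mRpL3 summits of replicates 1 and 3, of 20.1 and 35.6, lay 817 and 828 bp from it, so neither is a value of the summit beside the octamer. For mRpS22 the replicate 1 summit lay 189 bp away. Of the 4, only mRpL34 was in the thresholded list, and its summit was nearest to Dg (dystroglycan). None of the 12 strongest genes had an octamer there.

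Promoter windows, taken from 250 bases before to 50 after the most upstream start of each gene, were searched for 8 other elements. The DNA replication-related element (DRE) TATCGATA, a core promoter element of fly housekeeping genes bound by Dref, was in 15 of 73 windows (20.5%), against 9.37% of all windows. It began within 50 bp of the start in 14 of the 15, against 59.4% of the 1306 genes with one. Of the 15 family genes with a DRE, 4 (26.7%) had a thresholded summit, against 40.4% of all genes with one. Of the 58 without, 26 (44.8%) did, against 29.5% of all genes without one. The median strength was 89.5 with and 108 without a DRE in the family, and 109 and 106 over all genes. By the 1 kb rule the share was thus lower with a DRE than without in the family and higher over all genes. By the nearest-start rule 2 of the 15 and 8 of the 58 had a thresholded summit. These 2 shares were close to each other. Over all genes together the share was 23.6%, and it was not split by DRE. None of these differences was tested. Motif 1, searched as GGTCACAC, was in 8 windows (10.96%, against 7.71%), and the E-box CACGTG in 5 (6.85%, against 4.24%). Motif 7, CAGCNCTA, was in 3 (4.11%, against 3.58%) and the GATA site TGATAAG in 3 (4.11%, against 6.91%). The GAGA element GAGAGAG was in 1 (1.37%, against 5.87%), GCGCATGC, the core of the site of ewg (the fly NRF-1), in 1 (1.37%, against 1.05%), and the ETS site CCGGAAGT in 0 (0.38% of all windows). Either Capicua octamer was in 3 windows (4.11%), against 4.11% of all windows. All were searched on both strands, and matches of different elements may overlap.

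**Figure D5:**
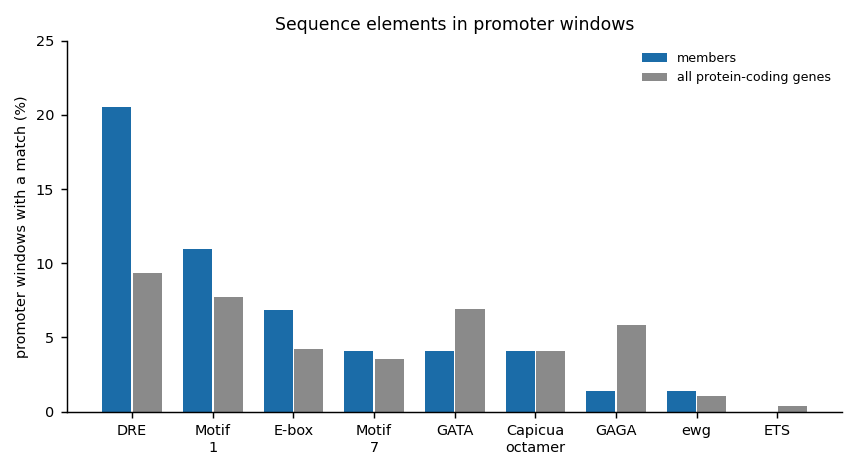
Share of promoter windows (%, vertical axis) that hold each sequence element on either strand, for the 73 mitochondrial ribosomal protein genes (blue) and all 13945 protein-coding genes (grey). The DRE bars stand at 20.5% and 9.37%; the bars for the Capicua octamers are level at 4.11%.

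A further word stood out when the start sequences were read. The hexamer CAGCTG, which reads the same on both strands, was in 40 of 73 promoter windows (54.8%), against 17.7% of all windows. It began within 50 bp of the start in 35 (47.9%), against 9.34%. It was searched only after these sequences had been seen, so its share is a description of this family. The heptamer TGGCAAC, noticed in the same way, was in 16 windows (21.9%, against 9.75%). Of the 40 genes with CAGCTG, 19 (47.5%) had a thresholded summit, against 39.0% of all genes with it. Of the 33 without, 11 (33.3%) did, against 28.7% of all genes without it. The median strength was 110 with and 86.8 without the word in the family, and 114.8 and 105 over all genes. By the 1 kb rule the share was higher with the word than without it in the family and over all genes alike. No count by the nearest-start rule was taken for this split. For 21 of the 30 thresholded family genes the strongest summit was nearest to another gene's start.

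The start windows below run from 100 bases before the start to 29 after and are read 5′ to 3′ along the gene. They were chosen to show both words beside genes with and without a peak, and capitals mark TATCGATA and CAGCTG (and, in mRpL21, the ewg-type GCGCATGC). The first, mRpL19 (chr3R:8674009-8674138, plus strand), holds both words and has a summit on its start. The next, mRpL10 (chr2L:203679-203808, plus strand), holds the DRE and has its own thresholded summit 40 bp upstream of the start. The gene mRpS24 (chr3R:24163516-24163645, minus strand) holds CAGCTG alone and has a thresholded summit 28 bp upstream. The gene mRpL21 (chr3L:19255032-19255161, minus strand) holds CAGCTG, and its summit of 133 is nearest to rept, a helicase gene. The last, mRpL39 (chr3L:14999637-14999766, minus strand) and mRpS25 (chrX:14582953-14583082, minus strand), hold the DRE, and mRpS25 also CAGCTG, but neither has a summit in the pooled list.
mRpL19 start: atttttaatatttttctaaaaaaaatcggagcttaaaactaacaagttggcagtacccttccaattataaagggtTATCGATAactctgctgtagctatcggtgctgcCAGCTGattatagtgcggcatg
mRpL10 start: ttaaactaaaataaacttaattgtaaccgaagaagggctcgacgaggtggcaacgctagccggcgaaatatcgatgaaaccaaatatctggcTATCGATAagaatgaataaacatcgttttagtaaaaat
mRpS24 start: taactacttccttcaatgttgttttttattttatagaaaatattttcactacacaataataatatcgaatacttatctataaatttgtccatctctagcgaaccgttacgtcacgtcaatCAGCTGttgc
mRpL21 start: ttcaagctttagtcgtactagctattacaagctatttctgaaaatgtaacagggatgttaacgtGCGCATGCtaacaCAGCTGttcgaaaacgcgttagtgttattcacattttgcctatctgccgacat
mRpL39 start: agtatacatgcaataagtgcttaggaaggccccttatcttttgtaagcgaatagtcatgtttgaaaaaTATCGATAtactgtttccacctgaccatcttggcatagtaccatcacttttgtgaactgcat
mRpS25 start: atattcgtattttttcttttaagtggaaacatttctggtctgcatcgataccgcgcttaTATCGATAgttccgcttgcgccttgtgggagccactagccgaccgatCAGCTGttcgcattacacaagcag

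The next sequence shows an octamer beside a summit. It covers 50 bases on either side of the strongest mRpS22 summit (chr3R:27916796-27916896, plus strand), which scored 91.0 and lay 62 bp upstream of the start of this mitochondria-specific small-subunit gene. Capitals mark TGAATGAA.
mRpS22 summit: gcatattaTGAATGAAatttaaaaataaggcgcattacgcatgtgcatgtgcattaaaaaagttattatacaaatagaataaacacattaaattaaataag

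Other genes of mitochondrial translation and its products are given for scale. The 92 genes with symbols of cytoplasmic ribosomal proteins (RpL, RpS or RpLP with a number) had a thresholded summit within 1 kb in 62 cases. In 53 cases 1 was nearest to the gene's own start, and the median strength was 174. The strongest of this list were RpLP0-like (494), included by its symbol, RpS12 (488), RpS27 (471) and RpL7 (466). The RpS27 and RpL7 summits lay 6 and 18 bp downstream of the gene's own start. Of 90 respiratory chain genes, whose mitochondrially encoded partners the mitochondrial ribosome makes, 34 had a thresholded summit within 1 kb and 24 one nearest to their own start, with a median strength of 114.7. The strongest were COX7AL2 (564), ND-51 (287), ND-ASHI (263) and Cyt-c-p (261). Between both ways of counting the number fell from 30 to 10 in the mitochondrial ribosomal family (41.1% to 13.7%). It fell from 62 to 53 in the cytoplasmic one (67.4% to 57.6%) and from 34 to 24 in the respiratory chain (37.8% to 26.7%). Over all genes the share fell from 30.5% to 23.6%.

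Among 18 genes of mitochondrial DNA and RNA metabolism, 9 (50%) had a thresholded summit and 7 (38.9%) one nearest to their own start. For these and the next 2 lists the shares of all genes were 30.5% and 23.6%. The strongest were Lon, a matrix protease gene (352), mtSSB, a single-stranded DNA binding protein gene (254), mtTFB1 (253) and PolrMT, the mitochondrial RNA polymerase gene (163). Of 15 mitochondrial aminoacyl-tRNA synthetase genes 4 (26.7%) had a thresholded summit and 3 (20%) one nearest to their own start. The list was led by ArgRS-m (169), PheRS-m (149), LeuRS-m (145) and AlaRS-m (124). Of 12 mitochondrial translation factor genes 2 (16.7%) had a thresholded summit and 1 (8.33%) had one nearest to its own start. The strongest were GatA at 199, GatB at 129, mRF1 at 94.3 and mEFTu1 at 77.5. The ribosome assembly gene CG7488 scored 79.4. The genes tko and bonsai, which encode ribosomal proteins of the small subunit under other symbols and so fell outside the rule, scored 58.6 and 61.2 and were not in the thresholded list. In replicates 1 and 3 tko scored 28.6 and 25.6, and bonsai 24.8 and 37.7. Both lay within the range of the family and below its median. Of the genes named from these other lists, several had another gene's start nearest to their strongest summit. They were RpLP0-like, RpS12, ND-51, ND-ASHI, mtTFB1, AlaRS-m, GatA, mRF1 and bonsai.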

How the data were processed

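The deposited peak lists on dm6 were used: a relaxed list for each replicate, a relaxed list from both pooled, each of 30000 entries, and a list of 7152 entries that met the authors' cutoff on irreproducible discovery. Alignments of the replicates and of a control went into them, per the text list deposited with the files. The sources used here name no aligner, peak caller or settings. The unit is the authors' deposited score of each peak, used to describe and rank peaks; its scaling for depth is not stated. All 7152 thresholded entries come from the top of the pooled list by score, so it need not agree peak by peak between replicates. No file used here gives reads, so depth is unknown, and 2 replicates limit the precision. The labels do not say whether the 2 replicates came from separately raised flies, so the spread between them may be technical.

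A summit (peak start plus its offset) was linked to every protein-coding gene with a start within 1 kb in the Ensembl release 115 annotation, and separately to the gene with the nearest start, ties counting for each gene. A gene's strength is its highest-scoring linked summit. Sequences come from the RefSeq copy of the Release 6 genome, with windows built at the most upstream start. The list of symbols sought for other mitochondrial genes was matched by symbol or synonym: 12 of 13 translation factors and 1 of 6 assembly factors matched. Genes given values in full were the 12 strongest, the 4 on either side of the threshold, those without a summit, the 5 thresholded genes with the widest replicate ratio, those with an octamer within 100 bp of the summit, and the 4 strongest of each other list. The family and the lists were chosen with earlier results of these data known. With 1 group no test between conditions is possible, and no p-value is given. Where a family count is compared, the share over all protein-coding genes is set beside it as a description and is not a test. Alternatives were the distance limit, the nearest-start rule, the stronger 50% of the list, each replicate left out and the motif window. Linking and motif search were tested on simulated data. Python 3.11.15, numpy 2.4.6, pandas 2.3.3 and matplotlib 3.10.9 were used.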

Additional observations from a re-analysis of the deposited data

How the results depend on the processing

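The count of 30 genes with a thresholded summit was 56 with a limit of 5000 bp, 10 by the nearest-start rule and 14 in the stronger 50% of the list. In that order the shares of all genes were 50.7%, 23.6% and 16.3%, against 76.7%, 13.7% and 19.2% of the family. In the same order of settings the count was 37, 7 and 7 for the large subunit, 19, 3 and 7 for the small subunit, 33, 5 and 10 for genes with a numbered bacterial counterpart, and 23, 5 and 4 for the others. The count in both replicates was 36 by the nearest-start rule. The median strength was 125 at 2000 bp, 166 at 5000 bp and 69.1 by the nearest-start rule; from a single replicate it was 53.9 to 56.1, since a pooled score is about the sum of both. The median distance of 99 bp was 85 at 500 bp, 189 at 2000 bp, 2125 at 5000 bp and 136 to 139 from a single replicate. Another gene's start was nearest for 64 genes at 5000 bp and 11 in the stronger 50%. Octamers were near 0 summits in the stronger 50% and 2 to 4 from a single replicate. Divergent neighbours within 300 bp numbered 33. A DRE lay within 100 bp of the strongest summit in 6 of 69 (8.70%), against 6.82% of all genes with a summit. For the counts in both replicates, of other genes' starts, of octamers and of divergent neighbours, no share over all genes was taken at these settings. A longer distance or a shorter list sets these counts by its construction; for the octamer counts the cause was not tested. In total 32 values moved and 52 stayed. A count stayed if within 1.5 times, a median strength if within 1.59 and a median distance if within 2.12 bp, the SD between replicates, and the replicate ratio if it moved by no more than its distance from 1. From replicate 3 alone 24 family genes (32.9%) had a summit among that replicate's strongest 7152 entries, against 29.8% of all genes, and from replicate 1 alone 31 (42.5%), against 31.2%. No paired analysis was possible because there is only 1 group. Peak scores without read counts give no counting interval, and a gene without a summit in these lists may lie below the entries kept.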
